A study of Rattus norvegicus with 6 samples.

Results

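The mitochondrial ribosome was described here through every gene of the count table whose symbol is Mrpl or Mrps followed by a number, which gave 75 of 18631 genes, 45 named for the large subunit (Mrpl) and 30 for the small subunit (Mrps). They were measured by sequencing poly(A) RNA from rat vascular smooth muscle cells in culture, with 3 libraries of a MIAT knockdown and 3 libraries whose titles read Scr and whose genotype label reads WT, here named Scr control. MIAT, the targeted transcript, is a long noncoding RNA. The knockdown combined siRNAs with antisense oligonucleotides for 72 h, at a total of 50 nM. This treatment text stands with all 6 libraries, controls included, so the labels leave unsaid what the Scr cells were given. They are also silent on whether libraries stem from separate cultures, so the spread between libraries may be technical.

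Mitochondrial ribosomes are built in the matrix from ribosomal RNA encoded by mitochondrial DNA and from proteins that are encoded in the nucleus, made in the cytosol and imported. They translate the few proteins that mitochondrial DNA encodes, all of them subunits of the respiratory chain and the ATP synthase. Some of their proteins descend from the bacterial ribosome, and others were added later in mitochondria. The symbol does not always give the place: Mrps30 and Mrps18a encode proteins of the large subunit, and the protein of Mrps36 is known as a component of the 2-oxoglutarate dehydrogenase complex. Counts below follow the symbols unless a position is named.

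Total counts were 18173111 to 18598394 in the knockdown and 17793811 to 20121161 in the control libraries. The sum of 8 smooth muscle markers was high in both groups. It was 7550 to 10630 CPM (counts relative to the TMM-scaled library total) in the knockdown and 8677 to 10760 CPM in the control libraries. Acta2, Tagln and Cald1 made up most of it. Myocd was low, at 16.5, 4.03 and 4.88 CPM in knockdown libraries 1 to 3, against 18.3, 5.84 and 5.52 CPM in control libraries 1 to 3. The 7 endothelial markers summed to 4.21 to 5.21 CPM in the knockdown and 5.35 to 9.58 CPM in the control libraries. The defining gene Cdh5 was at 1 count in 1 library of each group. Kdr, another of the 7, was at 3.44, 2.47 and 0.831 CPM in the knockdown, against 7.60, 4.26 and 1.87 CPM in the control libraries. The 6 leukocyte markers summed to 9.34 to 14.1 CPM in the knockdown and 8.30 to 21.5 CPM in the control libraries. Ptprc was at 1 count in 1 knockdown library and 0 in all control libraries. Cd68, Csf1r and Itgam were counted in every library. Cd68 averaged 4.03 CPM in the knockdown against 7.30 in the control libraries, Csf1r 5.32 against 5.13 and Itgam 2.08 against 2.78. The low Cdh5 and Ptprc counts therefore do not show that cells of these types were absent. The sum of 5 fibroblast markers was 1429 to 1734 CPM in the knockdown and 2019 to 2175 CPM in the control libraries. In the block fit described below, 4 of the 5 fell, against 11.1% of all tested genes. So did 1 of 4 tested endothelial, 0 of 3 tested leukocyte and 2 of 8 smooth muscle markers. The fibroblast shift moves with the groups, and its part in the results below was not tested.

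All 45 Mrpl genes and 29 of 30 Mrps genes passed the low-count filter, with 84 to 2554 counts per tested gene and library. The exception was Mrps21l, a paralog of Mrps21, with 1 count in 1 knockdown library, 1 count in 1 control library and 0 in the others. In FPKM, which divide the count by gene length and library total and so allow levels of different genes to be compared, the tested members lay between 4.15 and 109 as means over all libraries, with a median of 18.2 for Mrpl and 19.7 for Mrps. The median over 74 cytosolic ribosomal protein genes was 681 FPKM and that over all tested genes 7.08. Mrpl17, a homologue of a bacterial protein at the exit of the peptide tunnel, stood at the top with 113 FPKM in the knockdown and 105 FPKM in the control libraries. Mrpl54 averaged 75.6 against 62.1 FPKM and Mrpl20 65.2 against 53.9 FPKM. Among Mrps genes the highest levels were those of Mrps26 (67.7 against 48.9 FPKM), Mrps7 (55.8 against 48.0) and Mrps16 (46.6 against 37.0). The lowest levels among Mrpl genes were those of Mrpl40 (4.61 against 3.70 FPKM) and Mrpl47 (6.98 against 4.18), and among Mrps genes those of Mrps27 (7.02 against 6.15) and Mrps10 (9.19 against 7.58).

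**Figure D1:**
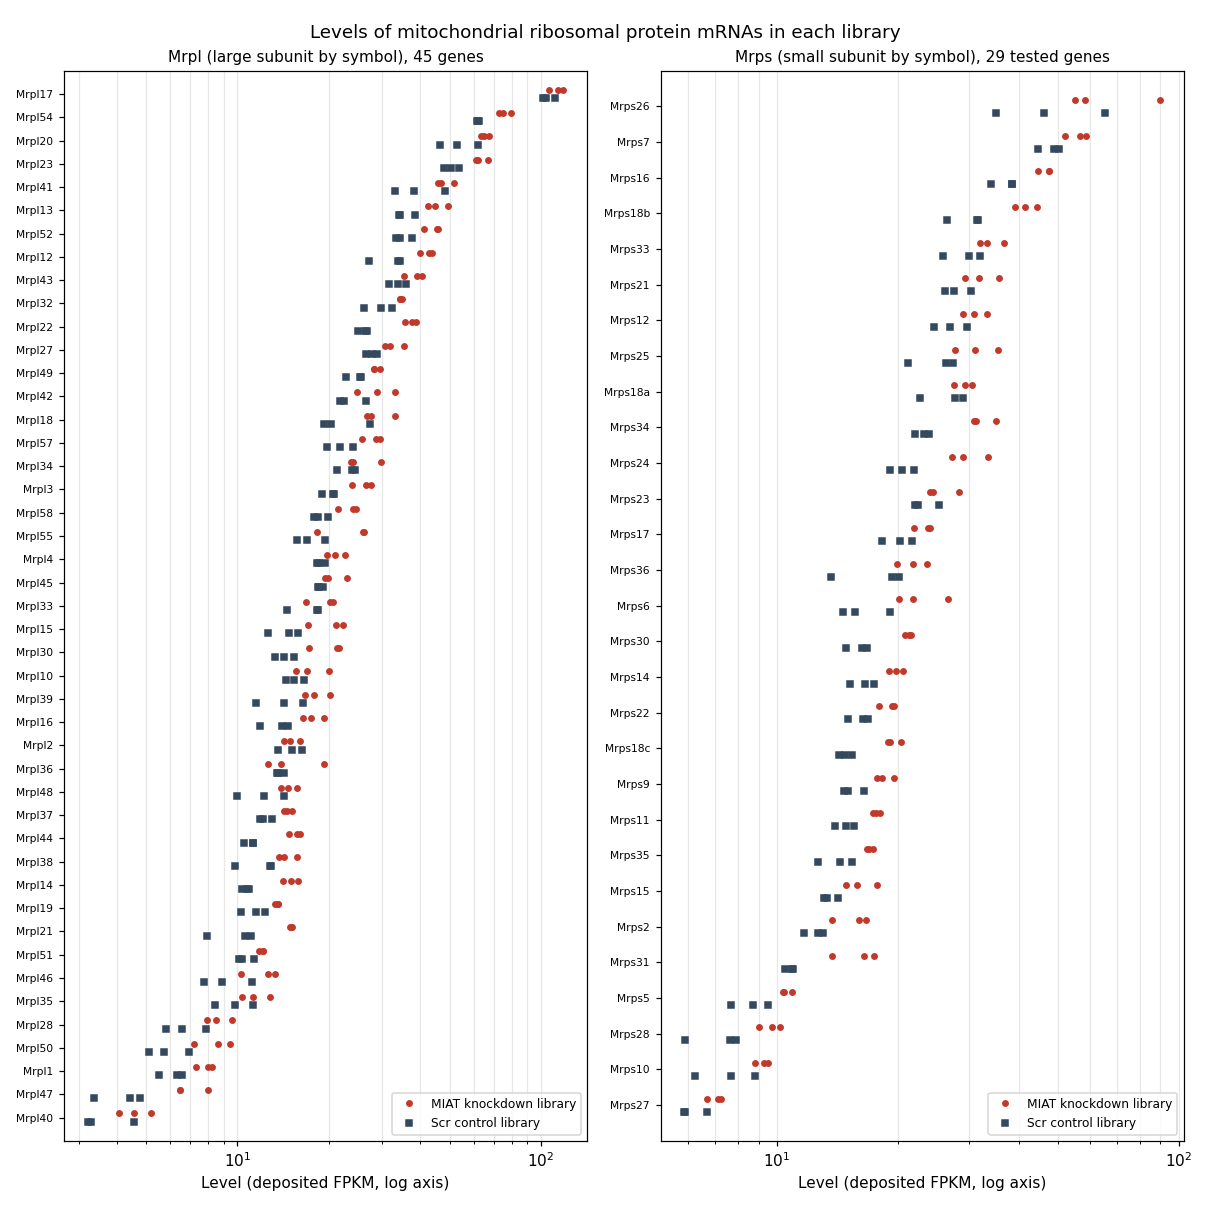
Level of each tested Mrpl (left) and Mrps gene (right) in deposited FPKM on a log axis, 1 point per library (circles for 3 MIAT knockdown libraries, squares for 3 Scr control libraries), ordered by the mean. FPKM are scaled by total counts, which places knockdown values higher than TMM scaling does, and Mrpl17 lies at the top at 109 FPKM on average against 4.15 for Mrpl40 at the bottom.

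Promoter windows, from 250 bases before to 50 bases after the annotated start, were available for 59 of the 75 members in RefSeq's GRCr8 annotation. They were searched on both strands for letters recognised by regulators known to act on nuclear genes of mitochondria. The letters CCGGAAG, a core for GABPA and other ETS factors, were in 20 of 59 member windows (33.9%), against 17.5% of 10335 windows of tested genes and 9.22% of all 27457 windows. AANATGGC, a core for YY1, was in 22 (37.3%), against 10.1% and 7.36%. The core used for NRF1, GCGCA and GCGC with 1 free base between them, was in 9 (15.3%), against 9.99% and 4.71%. On the other strand this core reads GCGC, 1 free base and TGCGC. The E-box CACGTG, bound by MYC with MAX, was in 6 (10.2%), against 9.42% and 6.65%. Of 26 matches to the YY1 letters, 20 lay at or after the start and read forward on the strand of the gene. These letters hold an ATG and can also be a start codon. None of the 4 sets of letters is part of another, and 20 of 59 windows held none of them.

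The windows below run from 150 bases before to 30 bases after the start, on the strand of the gene, and were chosen after the values were seen. They belong to the member with the largest rise, Mrpl47, to Mrps18b, the only member with all 4 kinds of letters, and to Mrpl30 and Mrpl44, which also rose and hold the NRF1 core. Capitals mark matches to the letters above. Mrpl47 is at chr2:117447332-117447511 on the minus strand, Mrps18b at chr20:2842856-2843035, Mrpl30 at chr9:47621077-47621256 and Mrpl44 at chr9:88554900-88555079, all 3 on the plus strand, in GRCr8, which may not be the build of the deposited counts.
Mrpl47: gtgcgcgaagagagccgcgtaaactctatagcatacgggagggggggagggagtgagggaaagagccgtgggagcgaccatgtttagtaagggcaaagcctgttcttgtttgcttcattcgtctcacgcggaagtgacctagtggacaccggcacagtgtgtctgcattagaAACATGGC
Mrps18b: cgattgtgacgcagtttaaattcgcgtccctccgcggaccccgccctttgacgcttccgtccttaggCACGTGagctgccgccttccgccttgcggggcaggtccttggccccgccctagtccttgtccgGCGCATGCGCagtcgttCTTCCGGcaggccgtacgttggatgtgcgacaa
Mrpl30: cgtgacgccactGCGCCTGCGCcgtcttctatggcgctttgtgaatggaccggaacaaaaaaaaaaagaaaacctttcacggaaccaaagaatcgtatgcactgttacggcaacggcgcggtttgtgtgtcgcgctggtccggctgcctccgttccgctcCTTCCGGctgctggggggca
Mrpl44: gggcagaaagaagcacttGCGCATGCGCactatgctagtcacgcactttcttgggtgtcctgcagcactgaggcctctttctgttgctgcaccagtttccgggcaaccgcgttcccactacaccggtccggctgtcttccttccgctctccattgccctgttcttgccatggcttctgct
Positions count the start as 1, with no 0. In Mrps18b the E-box lies at -83 to -78, the NRF1 core at -20 to -11 and the ETS letters, read on the other strand, at -3 to 4, while its YY1 letters (29 to 36) run past the printed end. In Mrpl44 the NRF1 core lies at -132 to -123. Mrpl30 has it at -138 to -129 and ETS letters at 11 to 17, both read on the other strand. Its E-box (-152 to -147) begins before the printed stretch. The window of Mrpl47 holds no match to the NRF1 core, the ETS letters or the E-box, and its YY1 letters lie at 23 to 30, with another match at -234 to -227 outside the printed stretch.

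Transcripts of the mitochondrial ribosome were slightly higher in the libraries labelled MIAT knockdown. Summed over the 45 Mrpl genes they made up 1278, 1276 and 1347 CPM in knockdown libraries 1 to 3, against 1143, 1153 and 1146 CPM in control libraries 1 to 3. Summed over the 30 Mrps genes they made up 776, 759 and 799 CPM in the knockdown, against 687, 673 and 666 CPM in the control libraries. In both sums every knockdown library was above every control library. In bulk RNA, fewer cells of a type and less RNA per cell cannot be told apart. Libraries with the same number were set side by side as pairs, and the median Mrpl gene was higher in the knockdown by a log2 difference of 0.18, 0.17 and 0.31 in pairs 1, 2 and 3, the median Mrps gene by 0.22, 0.20 and 0.25. Over all tested genes these medians were 0.0029, -0.0094 and -0.0021.

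Whether single genes passed a test depended on the pairing. In edgeR's quasi-likelihood test without the pairs, 0 of 45 Mrpl and 0 of 29 Mrps genes reached an adjusted p of 0.05, as did 0 (0.0%) of all 13423 tested genes, while 14 Mrpl and 8 Mrps genes were higher at an unadjusted p under 0.05 and 0 lower, against 10.4% of all genes higher and 8.76% lower. With the replicate number as a block, 14 of 45 Mrpl genes (31.1%) and 7 of 29 Mrps genes (24.1%) rose and 0 fell, against 10.5% of all tested genes higher and 11.1% lower. Rose and fell refer below to an adjusted p under 0.05 (Benjamini-Hochberg over all tested genes) in this block fit. DESeq2 called 1 Mrpl and 1 Mrps gene higher without the block, Mrpl22 and Mrps18b, against 2.85% of all genes higher and 2.57% lower, and 3 and 2 with it, against 5.02% higher and 7.06% lower. Without pair 2, 0 Mrpl genes and 1 Mrps gene passed in the block fit, against 2.56% of all tested genes higher. Without pair 1, 4 and 3 passed, against 3.96% of all genes higher, and without pair 3, 13 and 8 passed, against 14.1%.

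The differences were small and mostly in 1 direction. In the block fit 43 of 45 Mrpl genes and 29 of 29 Mrps genes had a log2 fold change above 0, against 48.5% of all tested genes, with a median of 0.21 for Mrpl (1.16-fold) and 0.18 for Mrps (1.13-fold), against -0.01 for all genes. Of the 74 tested members, 54 were higher in 3 of 3 pairs, against 28.0% of all tested genes, and 34 lay higher without overlap between the groups and 0 lower, against 14.2% and 11.8% of all genes. The risers lay between 1.17-fold and 1.55-fold, and 1 member, Mrpl47, exceeded 1.5-fold. Scaling by total counts moved the median of all genes to 0.10, the Mrpl median to 0.32 and the Mrps median to 0.29, with 25 Mrpl and 14 Mrps genes past the threshold, all higher, against 21.0% of all genes higher and 6.1% lower.

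**Figure D2:**
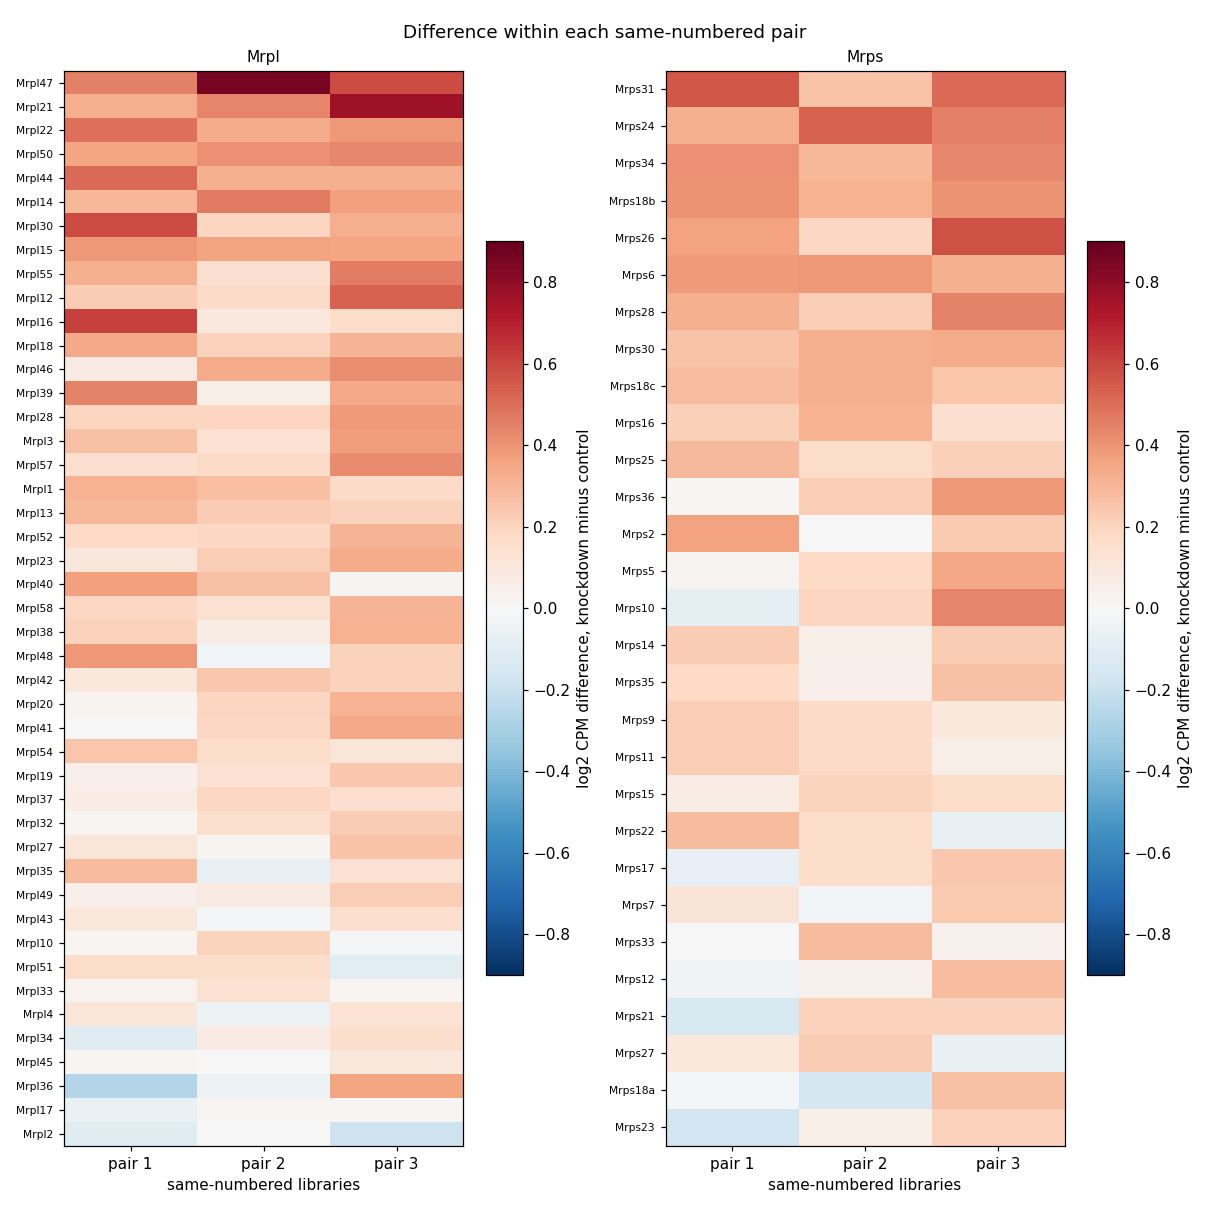
Difference in log2 CPM, MIAT knockdown minus Scr control, within each same-numbered pair for every tested Mrpl (left) and Mrps gene (right), ordered by the block fit. Red is higher in the knockdown library, and 54 of the 74 rows are red in all 3 pairs.

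Among Mrpl genes the largest rise was that of Mrpl47. Mrpl47, a homologue of a bacterial protein at the tunnel exit, measured 13.9, 14.4 and 17.6 CPM in knockdown libraries 1 to 3, against 10.2, 7.91 and 11.7 CPM in control libraries 1 to 3. The groups did not overlap (log2 fold change 0.63, standard error 0.118, edgeR adjusted p = 0.00869). Mrpl22, whose bacterial homologue lines the tunnel, measured 26.1, 25.6 and 27.5 CPM in the knockdown, against 18.5, 20.3 and 20.9 CPM in the control libraries, again without overlap (log2 fold change 0.41, standard error 0.0832, edgeR adjusted p = 0.0116). Mrpl21, also of bacterial descent, measured 19.2, 20.2 and 19.8 CPM in the knockdown, against 15.2, 14.9 and 11.6 CPM in the control libraries. Its knockdown values were nearly equal and its lowest control value was that of library 3 (log2 fold change 0.51, standard error 0.111, edgeR adjusted p = 0.015).

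Genes that overlap another annotated gene are uncertain, because the strand setting of the counting is not given in the sources used here. This holds for 19 of the 74 members matched to the annotation, 15 of them with a partner that the count table lists. For the other 4, Mrps2, Mrps9, Mrps28 and Mrps31, the partner has no value here. Mrpl47 overlaps Actl6a and Ndufb5, which had log2 fold changes of 0.12 and 0.08 and did not pass. Mrpl22 overlaps Gemin5 (0.03, not past). Mrpl55 overlaps Guk1 (0.07, not past). Mrpl14 overlaps Tmem63b, which fell by 0.25 on the log2 scale, and Mrps6 overlaps Slc5a3, which fell by 1.13. Beside members that did not pass, Stx3 (overlapping Mrpl16) and Ska3 (Mrpl57) rose by 0.34 and 0.58, and Syvn1 (Mrpl49) fell by 0.20. Eme1, which overlaps Mrpl27, was at 0.59 and did not pass. What shared reads add to any member was not tested.

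Mrpl50 and Mrpl44 encode proteins that bacterial ribosomes lack, and the Mrpl44 protein has a fold related to RNase III. Mrpl50 measured 16, 12.7 and 15 CPM in the knockdown, against 12.5, 9.48 and 11.1 CPM in the control libraries, lowest in library 2 of both groups (log2 fold change 0.40, standard error 0.103, edgeR adjusted p = 0.0264). Mrpl44 measured 17.4, 16.7 and 17.4 CPM in the knockdown, against 12.2, 13.3 and 13.9 CPM in the control libraries (0.39, standard error 0.1, edgeR adjusted p = 0.0275). Mrpl14, a homologue of a bacterial protein at the interface of the subunits, averaged 16 ± 1.05 against 12.3 ± 0.682 CPM (SD, n = 3 each) and rose 1.30-fold. Mrpl12, the stalk protein that recruits translation factors, and which in human cells has been found to bind the mitochondrial RNA polymerase, measured 63.2, 61.4 and 66.2 CPM in the knockdown, against 54.0, 54.6 and 45.8 CPM in the control libraries. It was the most abundant of the Mrpl genes that rose in CPM, and its pair difference was largest in pair 3 (log2 fold change 0.31, standard error 0.0808, edgeR adjusted p = 0.0283). Mrpl15, Mrpl30, Mrpl55, Mrpl18, Mrpl3, Mrpl13 and Mrpl52, named because they complete the 14 and not by the naming rule, rose 1.29-fold, 1.29-fold, 1.24-fold, 1.22-fold, 1.19-fold, 1.19-fold and 1.17-fold. Mrpl55 (edgeR adjusted p = 0.0494) lay just inside the threshold, and Mrps18c (0.0699) was the nearest member outside it.

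Other Mrpl genes named by the rule did not pass. Mrpl17, the most abundant member, measured 118, 137 and 130 CPM in the knockdown, against 124, 135 and 129 CPM in the control libraries, with overlapping groups and a log2 fold change of -0.01 (standard error 0.0533). Mrpl2, whose bacterial homologue lies near the peptidyl transferase centre, had the lowest value of the set, at 15.1, 13.8 and 14.2 CPM against 16.3, 13.9 and 16.2 CPM (log2 fold change -0.10, edgeR adjusted p = 0.497), and it was the only tested member lower in 3 of 3 pairs. Both had positive values, 0.10 and 0.01, under total count scaling. Mrpl36 differed between pairs, with log2 differences of -0.27, -0.04 and 0.36, and Mrpl45, a protein that holds the ribosome at the inner membrane, had a log2 fold change of 0.04. Mrpl58, a peptidyl-tRNA hydrolase built into the large subunit, averaged 19.6 ± 1.25 against 16.9 ± 0.487 CPM (SD, n = 3 each) without overlap, a log2 fold change of 0.21 that did not pass (edgeR adjusted p = 0.131). Of the other genes the rule names, Mrpl54, Mrpl20, Mrpl40, Mrpl37 and Mrpl33 had log2 fold changes of 0.18, 0.18, 0.22, 0.13 and 0.06 and did not pass.

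Among Mrps genes Mrps31, a protein that bacteria lack in the head of the small subunit, measured 21.2, 18.3 and 22.9 CPM in the knockdown, against 14.4, 15.3 and 16.1 CPM in the control libraries (log2 fold change 0.45, standard error 0.0992, edgeR adjusted p = 0.016). Mrps24, a homologue of a bacterial protein at the entry of the messenger RNA, measured 20.3, 22.4 and 25.5 CPM in the knockdown, against 16.2, 15.5 and 18.6 CPM in the control libraries (0.44, standard error 0.0901, edgeR adjusted p = 0.0123). Neither gene overlapped between the groups. Mrps34, needed for a stable small subunit in mouse and human cells, averaged 28.1 ± 1.99 against 21.6 ± 1.33 CPM and Mrps6, a homologue of a bacterial small subunit protein, 14.3 ± 1.87 against 11.1 ± 1.39 CPM (SD, n = 3 each), a 1.30-fold and a 1.29-fold rise. Mrps26 measured 82.1, 52.4 and 54.5 CPM in the knockdown, against 64.0, 46.1 and 36.6 CPM in the control libraries. Its groups overlapped, since library 1 was the highest of each, and it was higher in each pair, with a log2 fold change of 0.37 (standard error 0.0810 with the block and 0.247 without it, edgeR adjusted p = 0.0149 with the block). Mrps30, outside the naming rule, was the seventh Mrps gene to rise, by 1.24-fold.

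The paralogs of the Mrps18 family, which occupy different places in the ribosome, differed in value. Mrps18b, a small subunit protein outside the place of its bacterial relative, measured 45.8, 44.2 and 41.1 CPM in the knockdown, against 34.6, 35.6 and 31.1 CPM in the control libraries, and rose with a log2 fold change of 0.37 (standard error 0.0678, edgeR adjusted p = 0.00811). Mrps18c, which takes that bacterial place, measured 14.9, 16.5 and 15.1 CPM in the knockdown, against 12.3, 13.1 and 12.7 CPM in the control libraries, without overlap, but did not pass (0.29, standard error 0.0984, edgeR adjusted p = 0.0699). Mrps18a, the large subunit paralog, measured 22.9, 22.3 and 24.2 CPM in the knockdown, against 23.0, 24.7 and 20.2 CPM in the control libraries, with overlapping groups (0.03, standard error 0.0992). The differences between the paralogs were not tested. Mrps12, whose bacterial homologue lies at the decoding centre, had a log2 fold change of 0.10, Mrps7 0.11, Mrps16 0.23, Mrps10 0.18, Mrps27 0.08, Mrps21 0.09 and Mrps23 0.03, and none of these passed.

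**Figure D3:**
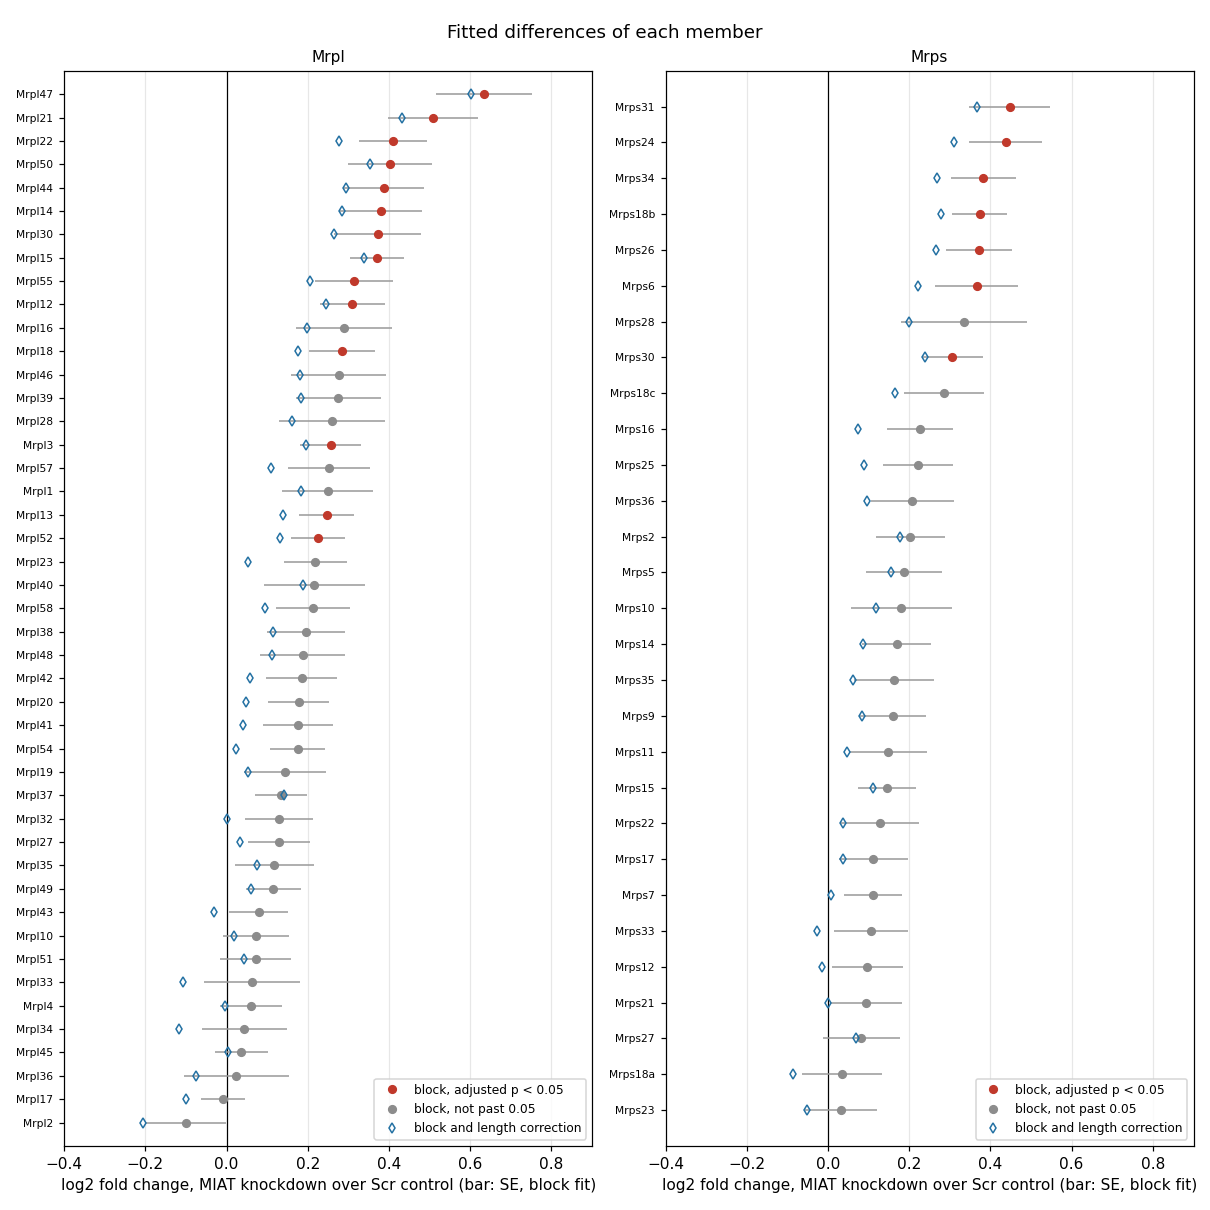
Log2 fold change of MIAT knockdown over Scr control for each tested Mrpl (left) and Mrps gene (right), filled points with standard errors from the edgeR fit with the replicate block, red where the adjusted p was under 0.05. Open diamonds give the same fit with the gene length correction, which lie left of the filled points for nearly every gene, and 43 of 45 and 29 of 29 filled points are above 0.

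By place in the ribosome, with Mrps30 and Mrps18a moved and Mrps36 and Mrps21l left out, 15 of 47 large subunit genes and 6 of 26 small subunit genes rose, with medians of 0.21 and 0.17, and the difference between the subunits was not tested. Of 42 genes of bacterial descent 12 rose, with a median of 0.18, and of 31 mitochondria-specific genes 9 rose, with a median of 0.20. In the large subunit 10 of 26 genes of bacterial descent (38.5%) and 5 of 21 mitochondria-specific genes (23.8%) rose. In the small subunit the counts were 2 of 16 (12.5%) and 4 of 10 (40%). Mrps18a and Mrps18b, relatives of a bacterial protein that take other places, were counted as mitochondria-specific, and Mrps18b is among these 4. Counting it by descent would change both shares. Of all tested genes 10.5% were higher in this fit, so that the 2 of 16 were near the share of all genes, and no difference by descent was tested. Mrps36 itself had a log2 fold change of 0.21 and did not pass (edgeR adjusted p = 0.182).

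Gene length moved with the result. Lengths obtained from counts and FPKM had a median of 1144 bases for Mrpl and 1034 bases for Mrps, against 3159 bases for all tested genes, and ran from 527 (Mrpl33) to 3622 bases (Mrpl37). Of the 74 tested members 60 were in the shortest quintile of tested genes (246 to 1661 bases), 12 in the next and 2 in the middle quintile. The median log2 fold change of all tested genes was 0.10, 0.04, 0.00, -0.06 and -0.14 from the shortest to the longest quintile. In the shortest quintile 15.2% of genes were called higher and 2.23% lower, against 5.47% and 22.9% in the longest. The 60 members in the shortest quintile had a median of 0.21 and 18 of them rose, the 12 in the next quintile a median of 0.17 and 3 of them rose.

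**Figure D4:**
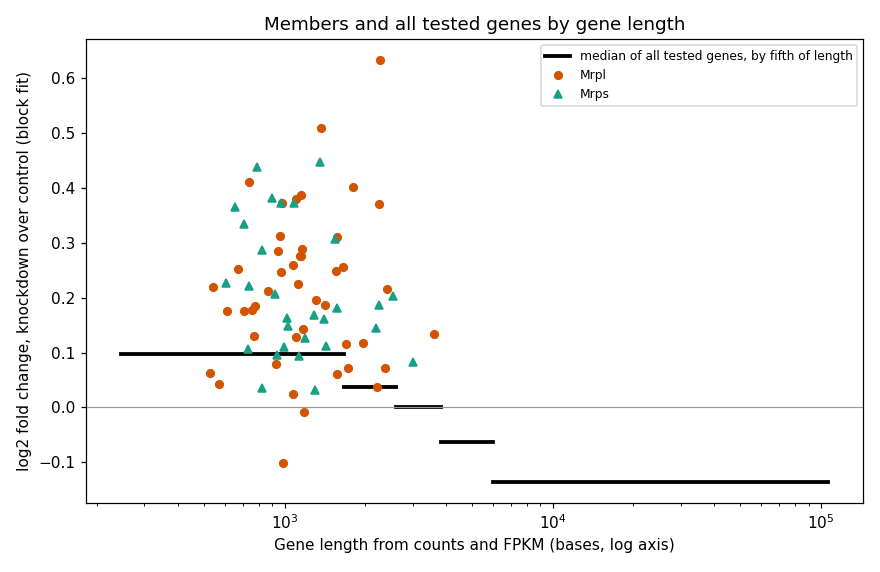
Log2 fold change in the block fit against gene length on a log axis, circles for Mrpl and triangles for Mrps, with black lines for the median of all tested genes in each quintile of length. The lines step down from 0.10 to -0.14, and most members lie above the line of their own quintile.

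With a correction for gene length in each library together with the block, the members' differences were smaller. The Mrpl median was 0.11 and the Mrps median 0.09, against -0.0037 for all tested genes, and 38 of 45 and 24 of 29 members stayed above 0. Then 5 Mrpl genes (11.1%) and 5 Mrps genes (17.2%) passed upward and 0 downward, against 9.53% of all genes upward and 7.81% downward, so that the share of Mrpl genes was near that of all genes. All 10 were among the 21 called without the correction: Mrpl47 (0.60), Mrpl21 (0.43), Mrpl50 (0.35), Mrpl15 (0.34), Mrpl12 (0.25), Mrps31 (0.37), Mrps24 (0.31), Mrps18b (0.28), Mrps34 (0.27) and Mrps26 (0.27). The other 11 calls ended, those of Mrpl22 (0.28, edgeR adjusted p = 0.0559), Mrpl44 (0.29, 0.0823), Mrpl14 (0.28, 0.0936), Mrps6 (0.22, 0.198), Mrpl3, Mrpl13, Mrpl18, Mrpl30, Mrpl52, Mrpl55 and Mrps30. By place and descent, 4 of 26 large subunit genes of bacterial descent (15.4%) and 1 of 21 mitochondria-specific ones (4.76%) passed upward in this fit. In the small subunit the counts were 1 of 16 (6.25%) and 4 of 10 (40%). What sets the trend with length was not tested.

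The 5 structural proteins with other symbols also had log2 fold changes above 0, and 3 of them rose, against 10.5% of all tested genes. Gadd45gip1, a large subunit protein, measured 24.7, 25.0 and 27.7 CPM in the knockdown, against 18.9, 20.8 and 18.6 CPM in the control libraries, and rose with a log2 fold change of 0.41 (edgeR adjusted p = 0.0163). Of the 4 small subunit proteins Chchd1 rose 1.20-fold and Ptcd3 1.19-fold, while Aurkaip1 (0.15) and Dap3 (0.07), the GTP-binding protein also known for its link to cell death, did not pass. With the length correction Gadd45gip1 (0.32) and Ptcd3 (0.26) passed, against 9.53% of all tested genes higher.

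The mitochondrial translation factors moved in both directions. Of 14 mitochondrial translation factors 1 rose (7.14%), 1 fell and 12 did not pass, with a median of 0.06, against 10.5% of all tested genes higher and 11.1% lower. Tsfm, the exchange factor for the elongation factor Tu, averaged 24.8 ± 2.40 against 20.3 ± 3.54 CPM (SD, n = 3 each) and rose 1.23-fold, while Mrrf, the ribosome recycling factor, measured 24.3, 26.5 and 25.3 CPM in the knockdown, against 31.2, 29 and 33.2 CPM in the control libraries, and fell by 0.30 on the log2 scale. Mrrf did not pass with the length correction (-0.27, edgeR adjusted p = 0.0648). Among 28 assembly factors 22 had a log2 fold change above 0, against 48.5% of all tested genes, with a median of 0.18. With the length correction that median was 0.15. Of the 28, 3 rose (10.7%) and 0 fell, so that the share was near the 10.5% of all tested genes. Chosen after their values were seen, these were Mrm3, a methyltransferase of the large ribosomal RNA, at 13.9, 9.07 and 12.1 CPM against 6.07, 6.06 and 5.46 CPM (1.97-fold), the helicase Ddx28 at 12.7 ± 1.45 against 8.53 ± 0.995 CPM (1.49-fold) and Mterf3 (1.25-fold).

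**Figure D5:**
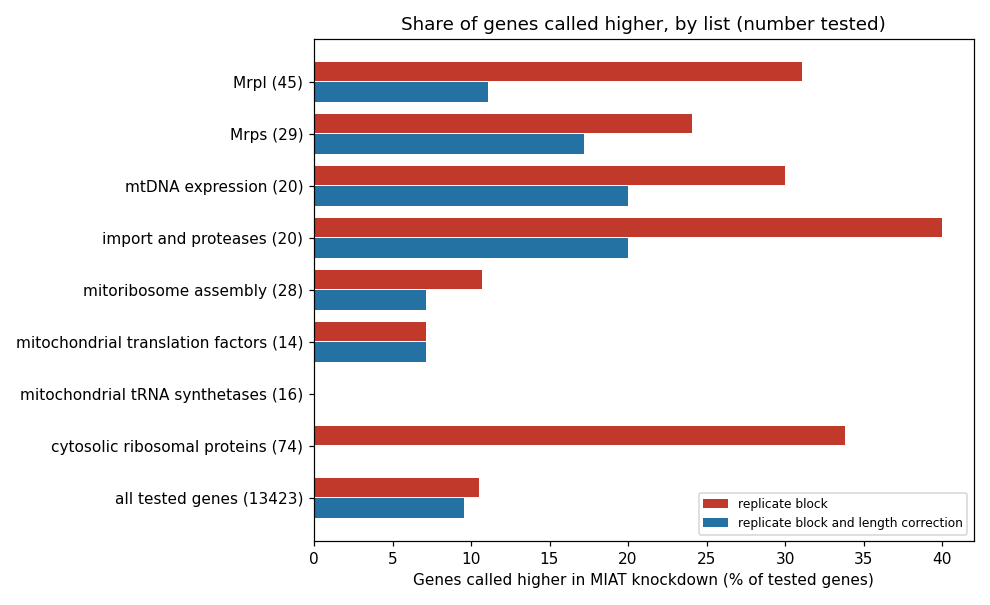
Percent of tested genes called higher in MIAT knockdown in edgeR with the replicate block (upper bar) and with the block and the gene length correction (lower bar), for Mrpl, Mrps, related lists and all tested genes, with the number tested. Mrpl stands at 31.1% and 11.1%, cytosolic ribosomal proteins at 33.8% and 0, all tested genes at 10.5% and 9.53%.

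Cytosolic ribosomal protein genes, which are shorter still with a median of 693 bases, had a median of 0.14 with 25 of 74 risen, and 0.01 with 0 higher and 3 lower once length was corrected. In that fit the 74 mitochondrial genes had a median of 0.10 with 10 called higher (13.5%), against 0.19 and 21 without the correction, and 9.53% of all tested genes were higher. The difference between the 2 sets was not tested, and reads of cytosolic ribosomal protein genes can be shared with processed pseudogenes.

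Of 9 tested regulators of nuclear genes for mitochondrial proteins 5 rose (55.6%) and 0 fell, against 10.5% of all tested genes higher. Myc measured 133, 99.7 and 108 CPM in the knockdown, against 54.4, 51.7 and 47.2 CPM in the control libraries, a 2.21-fold rise. Nrf1 (the nuclear respiratory factor) rose 1.26-fold, Yy1 1.25-fold, Esrra, an orphan nuclear receptor, 1.19-fold and Pprc1, a coactivator of the PGC-1 family, 1.17-fold, while Gabpa was at 49.3 ± 1.49 against 49.1 ± 5.65 CPM (SD, n = 3 each). Ppargc1a, the coactivator PGC-1 alpha, was the only tested regulator with a negative log2 fold change, at 0.885, 0.698 and 0.727 CPM in the knockdown, against 3.29, 2.19 and 0.428 CPM in the control libraries. Its groups overlapped and it did not pass (-1.16, standard error 0.494, edgeR adjusted p = 0.128). Esrra did not pass with the length correction (0.22, edgeR adjusted p = 0.0647). Members with the NRF1 core in the promoter window had a median log2 fold change of 0.37 (9 genes, 5 risen), against 0.18 for the 50 without (11 risen). Mrpl17, Mrpl32, Mrpl45 and Mrpl57 hold the core and did not rise. Of the 5 risers with the core, Mrps18b and Mrps26 passed with the length correction, while Mrpl14, Mrpl30 and Mrpl44 did not. Of the 11 risers without it, Mrpl12, Mrpl47, Mrpl50 and Mrps31 passed with that correction. The medians by letters are from the block fit without it. With an E-box the median was 0.23 (6 genes, 2 risen), against 0.19 (53, 14 risen) without. With ETS letters it was 0.20 (20, 6 risen) against 0.18 (39, 10 risen), and with YY1 letters 0.18 (22, 6 risen) against 0.20 (37, 10 risen). These are descriptions with few genes in some sets, and no difference between them was tested.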

How the data were processed

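The deposited counts are whole numbers of reads per gene symbol with no normalization, from the values; the authors' deposited FPKM equal the count divided by 1 length per gene and by the library total, within a relative spread of 3.35e-07, which gave the gene lengths. For the aligner, counter, strand setting and build, the labels and headers hold no entry (not given in the sources used here). In edgeR 4.0.16 (R 4.3.3), 13423 of 18631 genes passed filterByExpr, and TMM scaling, quasi-likelihood tests of MIAT knockdown against Scr control and Benjamini-Hochberg adjustment at 0.05 over all tested genes followed. A p-value here reflects the spread among these 6 libraries alone.

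The planned fit had no block. Same-numbered libraries, numbered in the titles, deviated together from their group means. The correlations across genes were 0.68, 0.52 and 0.58 for pairs 1, 2 and 3, all above 0.1. Between different numbers they were -0.56 to -0.05. Deviations from a group mean cancel out within the group, so positive same-number values push these others down. The second range is thus no separate evidence for pairs. The pairing thus comes from the shared numbers and the data, not from a stated batch, and the block fit is printed beside the fit without it. The biological coefficient of variation was 19.7% without and 8.09% with the block, on 4 and 2 residual degrees of freedom. The length correction was a loess curve (span 0.5) of log2 CPM on log2 length per library, used as offsets. Alternatives were DESeq2 1.42.0, limma 3.58.1 (voom, and a trend on log2(FPKM + 1) or log2(FPKM + 0.1)), other scalings and filters, and leaving out libraries or pairs.

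Named are, per subunit, the 6 largest rises and 4 lowest values in the block fit, the 3 highest and 2 lowest in FPKM, the longest and shortest gene, the Mrps18 paralogs, Mrpl12, Mrpl58, Mrps12 and Mrps34, the structural proteins with other symbols, and called translation factors and regulators. Members and lists were chosen with earlier results of these data known. Of 75 symbols 74 matched RefSeq's GRCr8 table, used for names, overlaps and promoters. Miat itself was not analysed here, so the labels were not checked against it.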

Additional observations from a re-analysis of the deposited data

How the results depend on the processing

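Without the block the count of members past the threshold was 0 for Mrpl and 0 for Mrps in every edgeR, voom and trend setting and without any 1 library, and 1 and 1 in DESeq2. Over all genes edgeR called 0 without the block and 2898 with it, and DESeq2 699 and 1590. With the replicate block, Mrpl and Mrps counts were 14 and 7, 12 and 7 with DESeq2 size factors, 14 and 7 in limma-voom, 14 and 7 without a low-count filter, 3 and 2 in DESeq2, 5 and 5 with the length correction, 25 and 14 on total counts, and 15 and 6 by place in the ribosome, an alternative added after seeing the data. Without 1 pair they ranged from 0 to 13 for Mrpl and from 1 to 8 for Mrps, with 4 and 3 without pair 1. Over all genes 1195, 736 and 4124 were called without pair 1, 2 and 3, against 2898 with all pairs. Each fit without a pair has fewer degrees of freedom, and what moved the counts was not tested.

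The Mrpl and Mrps medians (0.20 and 0.18 without the block) were 0.11 and 0.09 (0.1090 and 0.0850) with the length correction, 0.11 and 0.09 (0.1123 and 0.0884) with it and the block, 0.32 and 0.29 in the trend fit on log2(FPKM + 0.1), 0.28 and 0.26 on log2(FPKM + 1), 0.32 and 0.28 with total count scaling, and 0.32 and 0.29 with it and the block. FPKM are also scaled by total counts. Without 1 library or pair the medians ranged from 0.17 to 0.24 for Mrpl and from 0.15 to 0.21 for Mrps.

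Values near 0 changed sign, none of them past the threshold, and the cause was not tested. With the length correction, without and with the block, Mrpl33 was at -0.1135 and -0.1077, Mrpl36 at -0.058 and -0.0752, Mrps12 at -0.014 and -0.0141, Mrps18a at -0.0897 and -0.0868, Mrps23 at -0.0485 and -0.0518, and Mrps21 at -4.5e-05 with the block. With total count scaling, with and without the block, Mrpl17 was at 0.0988 and 0.099 and Mrpl2 at 0.0069 and 0.0056. In the trend fits on log2(FPKM + 0.1) and log2(FPKM + 1) Mrpl17 was at 0.0987 and 0.0979 and Mrpl2 at 0.0078 and 0.0072. Without a filter Mrpl17 was at 0.0023, and at 0.0009 with the block. Without 1 library, Mrpl17 ranged from -0.0544 to 0.0505, Mrpl33 from -0.0579 to 0.1375, Mrpl36 from -0.1605 to 0.1757, Mrpl45 from -0.0377 to 0.0831, Mrps18a from -0.0463 to 0.0899 and Mrps23 from -0.046 to 0.0926. Without pair 1 in the block fit Mrpl17 was at 0.0205, and without pair 3 Mrpl36 was at -0.1568, Mrps18a at -0.0825 and Mrps23 at -0.0628.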

Other observations

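Other genes of the mitochondrial gene expression system stand here by list. Of 20 genes for transcription, maintenance and processing of mitochondrial DNA and its RNA, 6 rose and 0 fell in the block fit, with a median log2 fold change of 0.16. With the length correction 4 passed, namely Trmt10c, Polg2, Tefm and Twnk, and Twnk had not risen without it. The genes named next were chosen from the 6 that rose, after their values were seen. Trmt10c, a subunit of the mitochondrial RNase P, was at 28.6, 29.4 and 30.7 CPM in the knockdown, against 16.9, 19.1 and 20.0 CPM in the control libraries (1.58-fold, edgeR adjusted p = 0.00262). Polg2, the accessory subunit of the mitochondrial DNA polymerase, rose 1.60-fold, Tefm, an elongation factor of transcription, 1.51-fold and Tfam, which packages mitochondrial DNA, 1.26-fold. Tfam did not pass with the length correction (edgeR adjusted p = 0.0599).

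Of 20 genes for protein import, processing and quality control 8 rose and 0 fell, with a median of 0.15, and 4 passed with the length correction. Tomm70 and Tomm20, receptors of the outer membrane, rose 1.34-fold and 1.27-fold. Of 16 mitochondrial aminoacyl-tRNA synthetases 0 rose and 1, Cars2, fell (log2 fold change -0.96, edgeR adjusted p = 0.0215), with a median of 0.02. In the block fit the shares of these 3 lists were 30%, 40% and 0 higher, against 10.5% of all tested genes. With the length correction they were 20%, 20% and 0, against 9.53% of all tested genes.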
